A study of Mus musculus with 9 samples.

Results

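E2A occupancy was compared between CD73- cells and DN3 cells, 2 steps of T cell development that a gamma-delta T cell receptor separates. Every E2A peak on chromosomes 1 to 19, X and Y was taken, which gave 12434 peaks in CD73- cells and 12357 peaks in DN3 cells, 24791 of the 79216 peaks in the 6 lists of the series. A DN3 peak was counted as kept when a CD73- E2A peak overlapped it by at least 1 bp, and a CD73- peak with no such DN3 partner was counted as new. Each peak was then given to the nearest protein-coding gene of the mm10 build, by the span of the gene.

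Both groups came from BALB/c Rag2-/- fetal liver progenitors, so neither can rearrange its own antigen receptor genes. CD73- cells were DN3 cells that had been transduced with the KN6 gamma-delta receptor from the retrovirus MIY-KN6, which also carries YFP, overnight in 5 ng/ml IL7 and 5 ng/ml Flt3L. The YFP+ DN3 cells then spent 3 days on OP9-DL1 stroma, which displays a Notch ligand, and the labels also name an OP9 layer with the ligand of KN6. They were fixed for 10 min in 1% formaldehyde and sorted as Thy1+ YFP+ CD4- CD8- CD24+ CD73-, cells described as still holding alpha-beta potential. DN3 cells were harvested at day 7 of the same kind of culture, without the receptor; how they were fixed is not given in the sources used here. The precipitating serum was raised against the C-terminal end of E2A, and an input library was made for each stage. The authors joined duplicate samples into 1 file per group, so 1 pooled list stands for each stage and no difference between the stages has a replicate check. Cells carrying an empty vector were not analysed here, and the receptor, the transduction, the days of culture and the sort cannot be told apart.

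E2A is the pair of basic helix-loop-helix proteins made from Tcf3. It binds DNA as a dimer, often with its relative HEB, the product of Tcf12, at the E-box, a short motif with the letters CANNTG. Id proteins dimerise with E proteins and keep them from DNA, and signals from the T cell receptor raise Id3 through the Egr factors. In early thymocytes E2A and HEB are known to promote recombination and the pre-TCR programme and to hold back proliferation. A peak shows where chromatin was enriched, not how much a gene was transcribed, and the nearest gene need not be the target. The cell type could not be checked against marker expression, since the lists hold no expression values. The labels and files give no exon or intron for a peak, so position is given relative to gene spans and to listed start sites.

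Promoters of a few genes are printed to show the motif beneath the peaks. These genes were chosen after their values were seen, among those with a DN3 E2A peak over a promoter, kept in some and not in others. Where a gene had several such windows, the one with the most CAGCTG and CAGGTG was taken, so the choice favoured windows with a motif. Sequences are the 250 bases before a listed start site, from RefSeq, build GRCm38.p6, which is mm10, written 5′ to 3′ on the strand of the gene. Capitals mark CAGCTG, which reads alike on both strands, and CAGGTG, which reads CACCTG on the other strand. Both are forms of CANNTG. In the first 4 promoters the DN3 peak was kept. Arpp21, a cyclic AMP regulated phosphoprotein of immature thymocytes, lies at chr9:112217352-112217601 on the minus strand. Bbc3, the pro-apoptotic protein PUMA, lies at chr7:16310011-16310260 on the plus strand. Cd3g, a signalling chain of the receptor complex, lies at chr9:44980432-44980681 on the minus strand, and Lck, the kinase that starts the receptor signal, at chr4:129558373-129558622 on the minus strand. In the other 3 the DN3 peak was not called again. Dclre1c, the nuclease Artemis, lies at chr2:3423881-3424130 on the plus strand. Rag1, a subunit of the recombinase, lies at chr2:101649533-101649782 on the minus strand, and Ptcra, the pre-TCR alpha chain, at chr17:46763713-46763962 on the minus strand.
Arpp21: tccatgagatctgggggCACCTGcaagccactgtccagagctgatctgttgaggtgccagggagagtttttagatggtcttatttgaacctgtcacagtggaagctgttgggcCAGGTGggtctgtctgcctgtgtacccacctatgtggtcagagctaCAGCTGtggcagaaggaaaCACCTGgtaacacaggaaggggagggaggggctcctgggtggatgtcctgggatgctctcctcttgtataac
Bbc3: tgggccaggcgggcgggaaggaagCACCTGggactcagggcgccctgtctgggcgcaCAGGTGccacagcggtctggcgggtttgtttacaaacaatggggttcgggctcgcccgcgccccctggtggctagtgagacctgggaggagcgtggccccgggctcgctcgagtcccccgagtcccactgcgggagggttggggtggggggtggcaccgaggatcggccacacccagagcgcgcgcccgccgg
Cd3g: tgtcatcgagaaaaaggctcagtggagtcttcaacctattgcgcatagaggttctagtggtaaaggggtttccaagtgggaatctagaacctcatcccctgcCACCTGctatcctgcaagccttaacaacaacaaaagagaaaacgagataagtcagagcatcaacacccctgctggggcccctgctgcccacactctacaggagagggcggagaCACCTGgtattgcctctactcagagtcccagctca
Lck: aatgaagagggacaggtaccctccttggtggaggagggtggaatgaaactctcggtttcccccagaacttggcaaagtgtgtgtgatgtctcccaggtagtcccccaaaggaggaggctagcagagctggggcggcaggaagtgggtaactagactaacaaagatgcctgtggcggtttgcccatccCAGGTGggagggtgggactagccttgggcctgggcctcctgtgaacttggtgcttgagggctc
Dclre1c: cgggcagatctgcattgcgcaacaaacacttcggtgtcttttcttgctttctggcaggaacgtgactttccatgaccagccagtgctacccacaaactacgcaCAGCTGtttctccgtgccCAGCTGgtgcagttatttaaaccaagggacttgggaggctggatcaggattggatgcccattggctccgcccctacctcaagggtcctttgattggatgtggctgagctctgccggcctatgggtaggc
Rag1: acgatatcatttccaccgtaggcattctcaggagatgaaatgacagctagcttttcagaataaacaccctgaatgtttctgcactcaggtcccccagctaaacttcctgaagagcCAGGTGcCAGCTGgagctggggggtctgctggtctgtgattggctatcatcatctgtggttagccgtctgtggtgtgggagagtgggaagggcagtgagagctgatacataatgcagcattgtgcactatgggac
Ptcra: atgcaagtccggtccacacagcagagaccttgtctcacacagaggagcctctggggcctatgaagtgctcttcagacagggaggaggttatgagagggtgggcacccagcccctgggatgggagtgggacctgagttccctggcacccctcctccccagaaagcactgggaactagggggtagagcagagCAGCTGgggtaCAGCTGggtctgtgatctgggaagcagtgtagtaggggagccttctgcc

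The DN3 peaks over the promoters of Arpp21, Bbc3, Cd3g and Lck scored 2029, 1062, 156 and 86.4 in the DN3 list. In the same order, the tallest CD73- peaks on them scored 303, 144, 96.2 and 53.7 in the CD73- list. Only the DN3 peak was placed over the window, so these CD73- peaks need not lie on the promoter. A score here is minus 10 times the log10 of the p-value that MACS gave the authors; it ranks peaks within a list and is not a level that can be set between lists. The promoter peaks without a CD73- partner scored 422 at Dclre1c, 86.9 at Rag1 and 76.9 at Ptcra in the DN3 list. High and low peaks thus stood in both sets. Each of the 7 windows printed held at least 1 of the motifs, which the choice of windows favoured. The shares over all windows follow.

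Across all 21263 listed promoter windows, which run from 250 bases before the start to 50 after it, 69.0% held CANNTG, 15.6% held CAGCTG and 19.7% held CAGGTG. Of the 85 windows under a kept DN3 peak, 82.4% held CANNTG, 29 windows, 34.1%, held CAGCTG and 34 held CAGGTG. The 411 windows under a DN3 peak that was not called again gave 81.8%, 29.9% and 37.0%, and their 95% Wilson intervals overlapped those of the kept windows for each motif. Windows with no E2A peak at either stage gave 68.7%, 15.2% and 19.3%. Promoters under new CD73- peaks were only 16, and 3 of them held CAGCTG and 7 held CAGGTG. In these shares the kept and the lost windows stood closer to each other than to windows with no peak. The same held for the median GC content, 59.7% in kept, 61.3% in lost and 56.3% in windows with no peak. Its part in the motif shares was not tested. The 85 kept windows came from 75 genes and the 411 lost ones from 377, and the intervals count each window as separate.

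Few DN3 sites were met again. In CD73- cells 1610 of the 12357 DN3 peaks had an E2A peak, 13.0% (95% Wilson interval 12.4 to 13.6, which covers counting error only). Of the CD73- peaks, 10514 of 12434, 84.6%, had no DN3 peak (83.9 to 85.2). The lists were nearly equal in number and unlike in make-up. Peaks scoring at least 100, called strong here, were 1093 in the CD73- list, 8.79%, and 5011 in the DN3 list, 40.6%. The median width was 155 bp in CD73- cells and 617 bp in DN3 cells, and the peaks covered 2.42 Mb in CD73- cells and 8.83 Mb in DN3 cells. The other lists of transduced cells had median widths of 149 to 181 bp and the DN3 HEB list 721 bp, so width moved with the stage in both factors. With each peak set to 200 bp around its midpoint the kept share was 10.8% and the new share 89.0%. The read depth behind each list is not known from these files, and a DN3 peak without a CD73- call is not evidence that E2A had left the site.

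The peaks that were kept were the tall ones. Among DN3 peaks scoring 50 to 75, 4.73% were met again, and the share was higher at each step of the DN3 score, 7.31% at 75 to 100, 10.9% at 100 to 200, 18.7% at 200 to 300, 28.6% at 300 to 500 and 59.4% at 500 to 1000. Of the 289 DN3 peaks scoring 1000 or more, 263 were kept, 91.0%. Strong DN3 peaks as a whole were kept in 24.3%. On the CD73- side the order ran the other way. New peaks made up 92.6% of CD73- peaks scoring 50 to 75, 71.4% at 75 to 100 and 31.7% at 100 to 200. None of the 25 CD73- peaks at 1000 or more was new, which with so few peaks leaves a Wilson bound of 13.3%. All 25 also overlapped a peak in each of the DN3 HEB, CD73- HEB, CD73+ E2A and CD73+ HEB lists. Some stood at sites, named below, where every list had a peak of 3100. Strong CD73- peaks were new in 22.2%. The median score in the CD73- list was 57.1 for new peaks and 88.8 for those on a DN3 peak. In the DN3 list it was 275 for kept peaks and 76.0 for those not called again, although 3795 strong DN3 peaks were among those not called again.

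**Figure D1:**
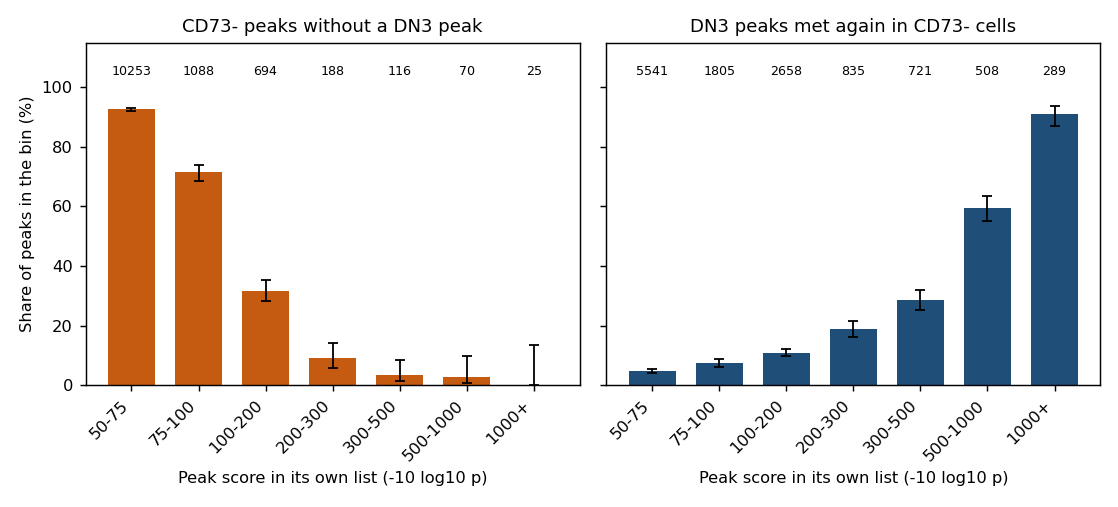
Shares of peaks by the peak's own score, with the number of peaks above each bar and 95% Wilson intervals as bars. Left, CD73- E2A peaks without a DN3 peak, 92.6% in the lowest score bin and 0 of 25 in the highest; right, DN3 E2A peaks met again in CD73- cells, 4.73% in the lowest bin and 91.0% in the highest.

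Where a site was kept, the CD73- peak was a small peak inside the DN3 one. The 1920 CD73- peaks on a DN3 peak formed 1929 overlapping pairs. In 91.5% of them the CD73- peak lay wholly inside the DN3 peak, and the midpoints were a median of 103.5 bp apart. These CD73- peaks had a median width of 244 bp and the kept DN3 peaks one of 884.5 bp. Since pairs were picked by overlap, such widths favour a peak lying inside the other. A single CD73- peak lay on 1414 of the kept DN3 peaks, 2 lay on 132, and 3 or more on 64. The ranking was partly shared, with a Spearman correlation of 0.50 between the scores over the 1610 kept peaks as a description, and 54 of the top 100 in common. DN3 peaks that were not met again were seldom near misses, since only 1.10% had a CD73- E2A peak within 500 bp and 8.44% within 5000 bp.

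By gene, 6226 of 21887 protein-coding genes, 28.4%, were nearest to a DN3 peak, and 1280 of them, 20.6% (19.6 to 21.6), kept at least 1 peak. In CD73- cells 5613 genes, 25.6%, had a peak. All DN3 peaks were kept at 460 genes and some at 820. A further 1671 genes had CD73- peaks only at other positions, 3275 had none, and 2666 genes had CD73- peaks alone. Genes with a single DN3 peak kept it in 12.0%, and genes with 5 or more kept at least 1 in 58.6%, 255 of 435. In the 820 partly kept genes the tallest DN3 peak was a kept one in 642, 78.3%. Even so, 180 genes with 5 or more DN3 peaks kept none. They included Gadd45g, a stress-induced growth inhibitor, with 15 DN3 peaks, and Foxo1, a quiescence factor that drives Il7r and Klf2, with 13. Hivep3, a zinc finger protein, had 12 and Pik3r1, the regulatory subunit of PI3K, 10.

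HEB and CD73+ cells gave a second view of the same sites. Strong DN3 peaks that were not met again overlapped a CD73- HEB peak in 15.9%, a CD73+ HEB peak in 39.1% and a CD73+ E2A peak in 3.95%, while 72.6% overlapped a DN3 HEB peak. In all, 1659 of these 3795 strong peaks, 43.7%, had a peak in at least 1 of the 3 other lists of transduced cells. Of the 26 DN3 peaks at 1000 or more that were not met again, 15 had a CD73- HEB peak, 18 a CD73+ HEB peak and 23 at least 1 of the 3. Kept strong DN3 peaks overlapped CD73- HEB in 82.3% and CD73+ HEB in 89.4%. For the strong CD73- peaks, the new ones overlapped CD73- HEB in 49.0%, and those on a DN3 peak did so in 91.2%. Each is 1 pooled list, so the shares describe these lists.

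**Figure D2:**
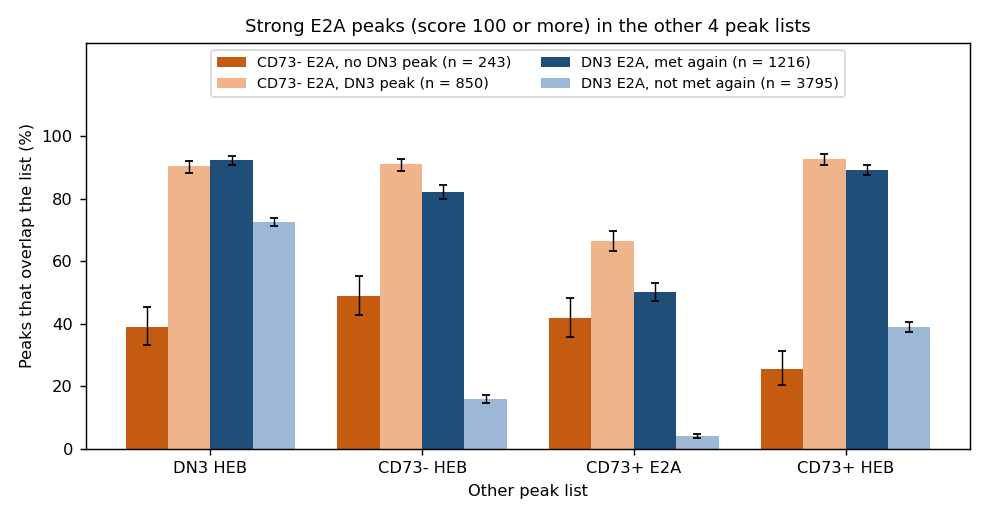
Share of strong E2A peaks (score 100 or more) that overlap each of the other 4 lists by at least 1 bp, with 95% Wilson intervals; CD73- classes are drawn left of DN3 classes in each group of bars. DN3 peaks not met again overlapped DN3 HEB in 72.6%, CD73+ HEB in 39.1% and CD73- HEB in 15.9%.

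Position in the genome also differed between the classes. New CD73- peaks lay inside a gene span in 27.1% and over 100 kb from any protein-coding gene in 34.6%. CD73- peaks on a DN3 peak lay inside a span in 42.0% and over 100 kb away in 16.2%. Among strong peaks the gap was smaller. The strong new CD73- peaks had 32.1% inside a span and 25.1% over 100 kb away. Strong CD73- peaks on a DN3 peak had 44.4% and 15.8%. For DN3 peaks the shares were 44.8% inside a span and 16.8% over 100 kb away when kept, and 52.0% and 11.9% when not called again. Within 1 kb of a listed start site stood 0.853% of new CD73- peaks (1.69% of the strong ones), 6.98% of CD73- peaks on a DN3 peak, 7.05% of kept DN3 peaks and 6.31% of those not called again. Start sites are listed for 17492 protein-coding genes, with none on chromosome 18 and stretches of other chromosomes without one, so these shares are low estimates over the other chromosomes. Strong DN3 peaks within 1 kb of a start were kept in 31.3% (26.3 to 36.8) and those farther away in 24.0% (22.7 to 25.2). At DN3 scores of 100 to 300 the shares were 19.3% (14.5 to 25.2) and 12.5% (11.4 to 13.7). At 300 to 1000 they were 47.9% (36.9 to 59.2) and 41.0% (38.1 to 43.9), with overlapping intervals. Over all DN3 peaks they were 14.4% (12.1 to 17.1) and 13.0% (12.4 to 13.6), which also overlapped.

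**Figure D3:**
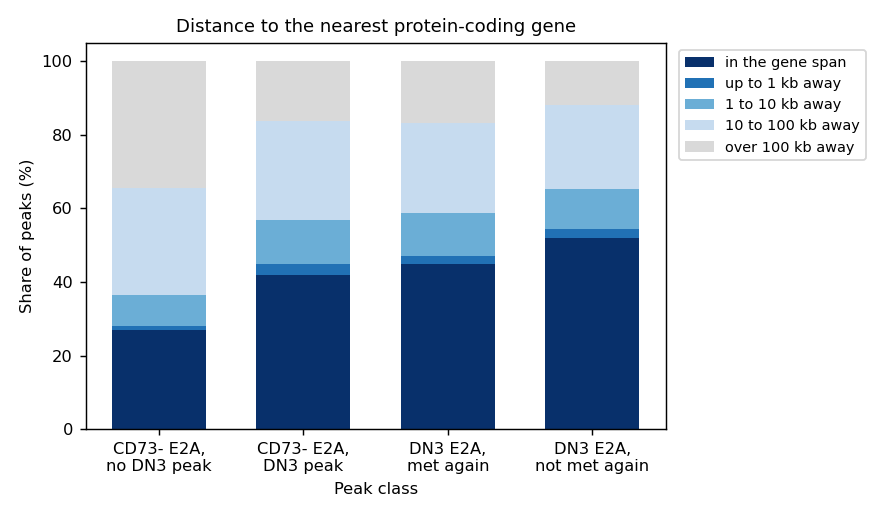
Share of peaks in each distance class from the nearest protein-coding gene, for the CD73- classes (left) and the DN3 classes (right). Peaks of every score are drawn. New CD73- peaks were over 100 kb from a gene in 34.6%, against 11.9% to 16.8% in the other 3 classes.

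The genes of 34 lists, chosen for their roles in T cell development or as markers of other cells, held 304 genes with a DN3 peak, of which 90 kept at least 1, 29.6%. All genes gave 20.6%, the share to set beside each count of kept genes in the lists below. Listed genes with a DN3 peak had a higher tallest peak, a median of 182 beside 100.3 over all genes with a DN3 peak, and the kept share moves with that score. Over single peaks the order was not repeated, with 113 of 906 DN3 peaks kept at listed genes, 12.5%, beside 13.0% over all genes.

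**Figure D4:**
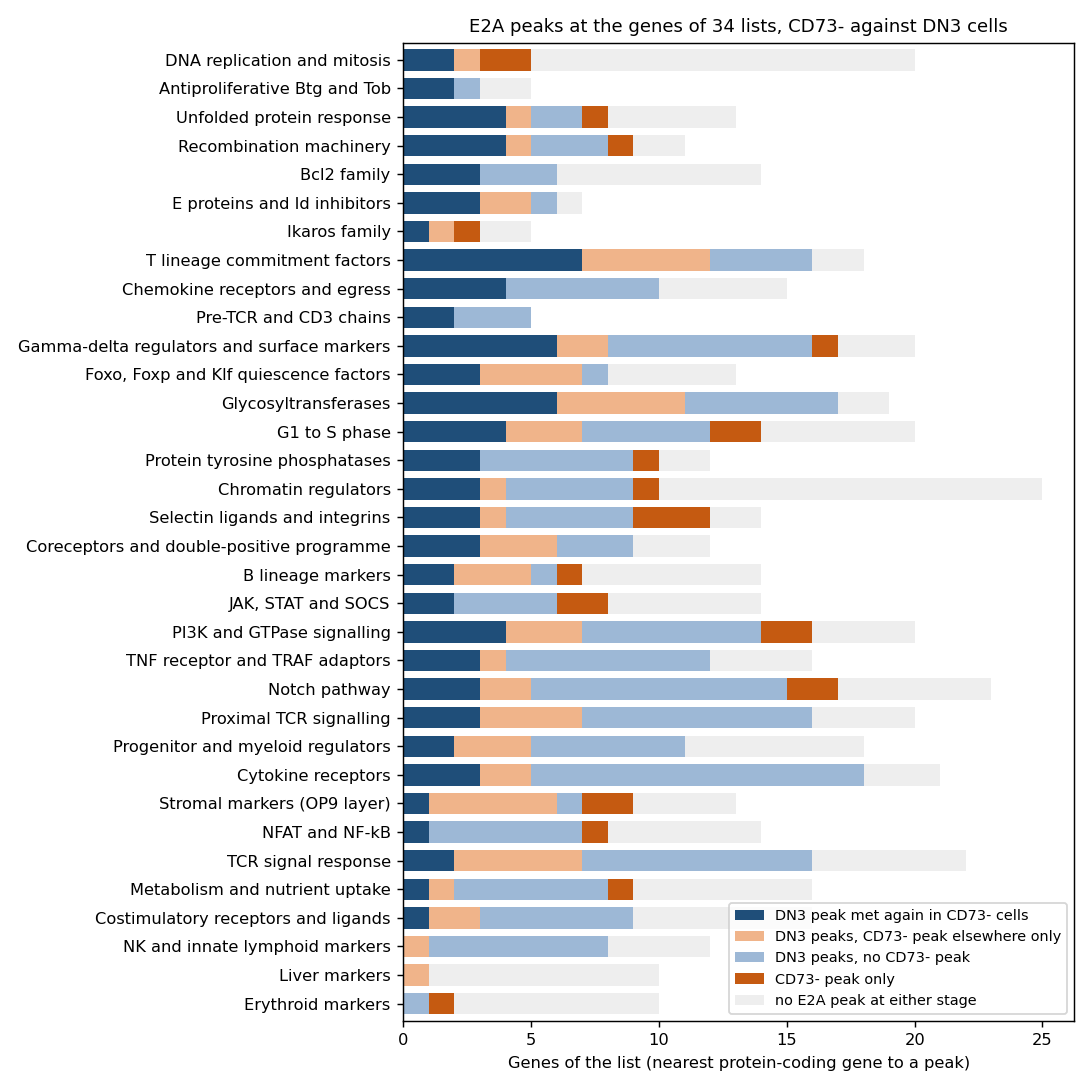
Genes of each list by the fate of their E2A peaks, with lists in order of the share of DN3-bound genes that kept a peak. The bars count genes. NK markers kept none of 8, cytokine receptors 3 of 18 and T lineage commitment factors 7 of 16, beside 20.6% over all genes.

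E proteins and their inhibitors kept a peak at 3 of 6 genes with a DN3 peak, beside 20.6% over all genes. Over single peaks they stood close to the whole, with 5 of 33 DN3 peaks kept, 15.2%, beside 13.0% over all DN3 peaks. Strong DN3 peaks of these genes were kept in 3 of 12, beside 24.3% over all strong DN3 peaks. Id2, an inhibitor of E proteins, was the most densely covered, with 5 peaks in CD73- cells and 20 in DN3 cells, of which 3 were kept. The tallest kept site, 92620 bp beyond the gene, scored 669 in the CD73- list and 3100 in the DN3 list. A site 170534 bp away scored 338 in the CD73- list and 909 in the DN3 list, and a site 82297 bp away scored 93.8 in the CD73- list and 1536 in the DN3 list. The 3 tallest Id2 peaks were thus the kept ones, and the next, at 312 in the DN3 list, was not called again. Id3, the inhibitor raised by receptor signals, kept a low peak 42741 bp away, at 51.5 in the CD73- list and 77.1 in the DN3 list, and the peak nearest the gene, which scored 59.3 in the DN3 list, was not called again. Tcf12, which makes HEB, kept an intragenic peak with 52.2 in the CD73- list and 79.3 in the DN3 list. Tcf3 itself had no CD73- peak, and its DN3 peaks scored 275, 137 and 56.9. Tcf4, the other E protein gene, and Id4 had CD73- peaks only at other positions.

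In the Notch pathway, which drives T cell specification, 3 of 15 genes with a DN3 peak kept one. Notch3, a receptor and a target of Notch signalling in DN3 cells, kept an intragenic site with 505 in the CD73- list and 2272 in the DN3 list. Notch1, the receptor that thymocytes need, kept a site 9220 bp from its span with 347 in the CD73- list and 1714 in the DN3 list. Both had other DN3 peaks, all at 100.3 or lower in the DN3 list, and none of those was called again. Mfng, a glycosyltransferase that tunes Notch receptors, kept 1 of 2 peaks. Hes1, the classical Notch target, had 7 DN3 peaks, the tallest at 184, and none was kept, while a new CD73- peak of 71.8 stood 155545 bp from it. Notch2 had 4 DN3 peaks with a top score of 356, and Nrarp, Rbpj, Lfng and Heyl had 1 to 3 each; none of these genes had a CD73- peak. Dtx1 was nearest to no E2A peak at either stage.

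T lineage commitment factors kept a peak at 7 of 16 genes, beside 20.6% over all genes. Over single peaks they did not stand above the whole. Of their DN3 peaks 10 of 86 were kept, 11.6%, beside 13.0% over all DN3 peaks. Of the strong ones 9 of 47 were kept, 19.1%, beside 24.3%. All 7 genes kept their peaks in part only. Tcf7, which makes TCF1, kept its upstream site 30192 bp away, with 191 in the CD73- list and 1170 in the DN3 list, and its other DN3 peaks of 401, 300.3 and 157 were not called again. Gfi1, a repressor, kept an intragenic site with 233 in the CD73- list and 1141 in the DN3 list. Lef1, the partner of TCF1, kept 1 of 7 peaks, 162512 bp away, with 61.6 in the CD73- list and 868 in the DN3 list. Gata3, needed for T cell fate, kept 1 of 9, with 80.7 in the CD73- list and 547 in the DN3 list at 262496 bp. Runx1 kept 3 of 12, all over 100 kb from the gene, with up to 133 in the CD73- list and 829 in the DN3 list. Ets1 kept 2 of 11, and its tallest DN3 peak, 770, was not one of them. Runx3 kept 1 of 10, a low one at 65.4 in the CD73- list and 64.3 in the DN3 list, while its tallest, 240.1, was not called again. Bcl11b, the factor that closes other fates, kept none of 8 peaks, which scored up to 243 in the DN3 list. Zbtb7b, Tox2, Fli1 and Myb had no CD73- peak. When every gene within 10 kb of a peak was counted in place of the nearest gene, 3 of 13 commitment factors kept one, and the kept sites of Tcf7, Lef1, Gata3 and Runx1 lay farther away than that.

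**Figure D5:**
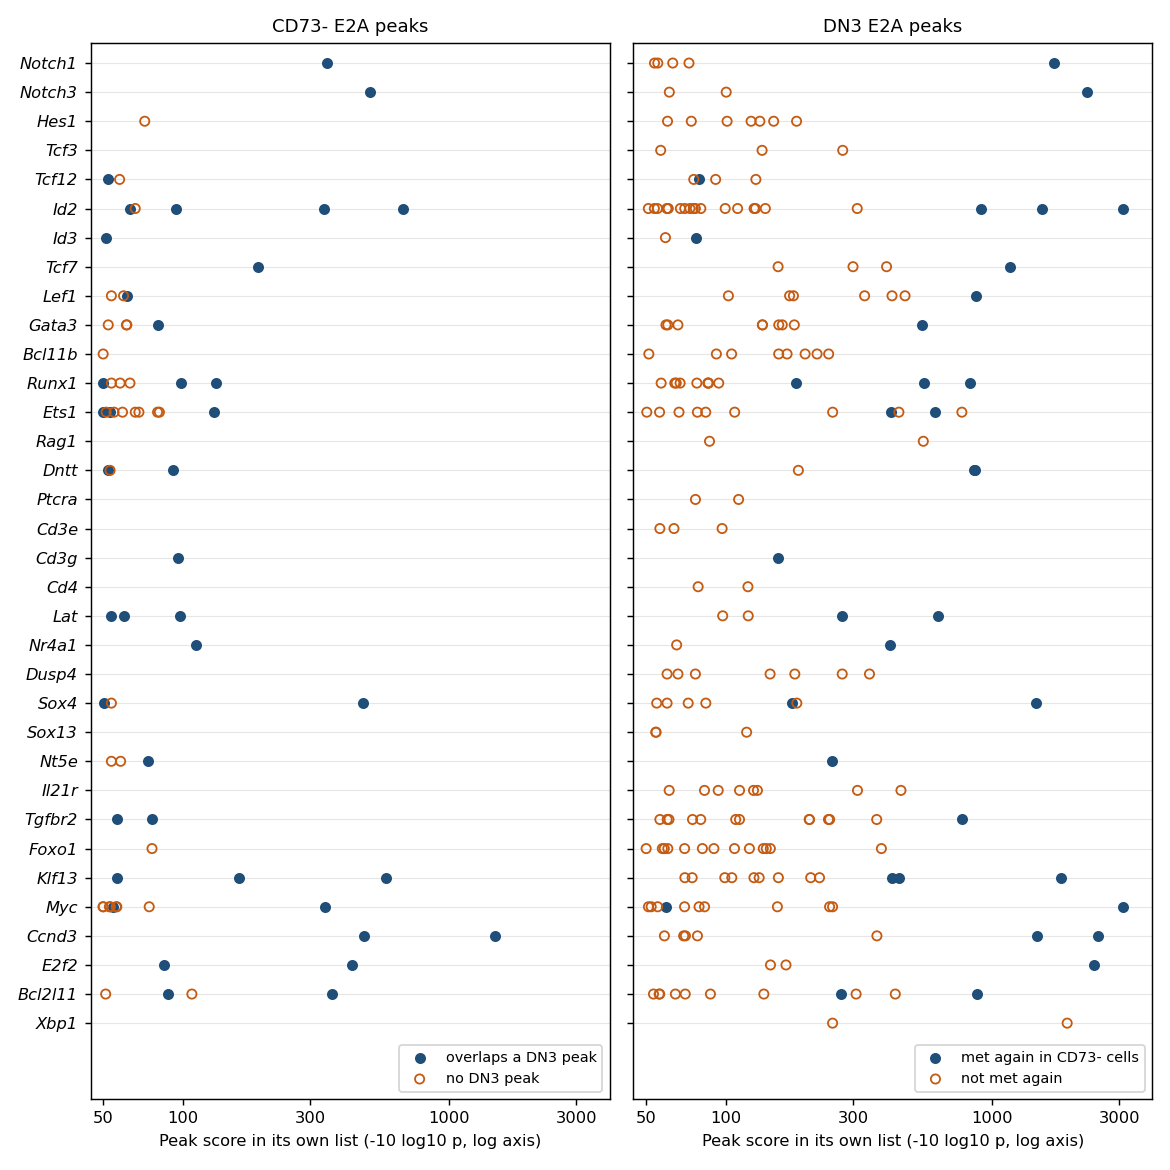
E2A peaks nearest to selected genes, by score within each list on a log axis, CD73- cells on the left and DN3 cells on the right. Filled points are sites called at both stages and open points are sites called at 1 stage; in most partly kept genes the filled DN3 points are the tallest, as at Id2, Tcf7 and Klf13, and Ets1 and Tcf12 are exceptions.

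The recombination machinery kept a peak at 4 of 8 genes, beside 20.6% over all genes, and 5 of its 14 DN3 peaks, beside 13.0% over all DN3 peaks. Xrcc6, which makes the end-joining protein Ku70, kept its only DN3 peak, at 287 in the CD73- list and 2072 in the DN3 list. Lig4, the ligase of that pathway, kept its only peak within its span, with 148 in the CD73- list and 732 in the DN3 list. Dntt, the polymerase that adds untemplated bases, kept 2 of 3. These scored 91.4 and 52.4 in the CD73- list and 861 and 854 in the DN3 list. Dclre1c kept an intragenic site with 79.7 in the CD73- list and 475 in the DN3 list, and its promoter peak was not called again. Rag1 had a promoter peak of 86.9 and a peak of 552 standing 711 bp from its span in the DN3 list, and no E2A peak in CD73- cells. Rag2 was nearest to no E2A peak at either stage. The end-joining genes Xrcc4, with a DN3 peak of 142, and Prkdc, with 2 of up to 72.0, kept none.

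Pre-TCR and CD3 genes kept a peak at 2 of 5. Cd3g kept the DN3 peak over its promoter, shown above. Cd247, the zeta chain, kept 2 of 6 intragenic peaks, with 102 and 65.5 in the CD73- list and 83.2 and 220.1 in the DN3 list, and had 2 new CD73- peaks of 98.4 and 65.7. Ptcra, Cd3e and Cd3d were nearest to no CD73- peak. Their tallest DN3 peaks scored 96.8 at Cd3e, 72.1 at Cd3d and 111.7 at Ptcra. When every gene within 10 kb of a peak was counted, 3 of the 5 genes kept one. The count thus depends on how peaks were given to genes. Of the coreceptor and double-positive genes 3 of 9 kept one. Arpp21 kept the DN3 peak over its promoter and a second intragenic site, with 181 in the CD73- list and 336 in the DN3 list. Cd4 had DN3 peaks of 121 and 78.7 and Cd8b1 of up to 233, without a CD73- peak, and Cd8a was nearest to none.

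Genes of proximal TCR signalling, which pass the signal from the receptor to the cytoplasm, kept a peak at 3 of 16, close to the 20.6% over all genes. Lat, the adaptor on which signalling complexes assemble, kept 2 of 4 DN3 peaks, the taller with 97.3 in the CD73- list and 627 in the DN3 list. Prkcq, protein kinase C theta, kept 2 of 7, the taller with 329 in the CD73- list and 628 in the DN3 list at 108865 bp. Lck kept its only peak. Zap70, Fyn, Lcp2, Syk and Ubash3a were among 9 genes with no CD73- peak. Among genes known to respond to receptor signals, 2 of 16 kept a peak and 9 had none in CD73- cells, where 52.6% of all DN3-bound genes had none. Nr4a1, an orphan nuclear receptor, kept an intragenic site with 111 in the CD73- list and 414 in the DN3 list. Nr4a3, its relative, kept a site 8574 bp away with 243 in the CD73- list and 119 in the DN3 list. Of the dual-specificity phosphatases, which restrain MAP kinases, Dusp4 had 7 peaks of up to 346, Dusp6 5 of up to 203 and Dusp2 3 of up to 386 in DN3 cells and none in CD73- cells, while Dusp1 had a new CD73- peak of 69.6 and no DN3 peak. Egr2, the factor that links receptor signals to Id3, had a DN3 peak of 153 at 30465 bp that was not called again. Egr1 and Egr3 were nearest to none.

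Regulators and surface markers of gamma-delta cells kept a peak at 6 of 16 genes, beside 20.6% over all genes. Of their DN3 peaks 7 of 44 were kept, 15.9%, beside 13.0% over all DN3 peaks. Sox4, a factor for the IL17-producing branch, kept 2 of 7 DN3 peaks, the taller 5628 bp away with 475 in the CD73- list and 1467 in the DN3 list. Il22, a cytokine of that branch, kept a site with 109 in the CD73- list and 1866 in the DN3 list. Etv5, a factor of the same cells, kept its only peak, at 122 in the CD73- list and 376 in the DN3 list. Nt5e, which encodes CD73 itself, kept a distant site 230739 bp away with 74.2 in the CD73- list and 251 in the DN3 list, and 2 new low CD73- peaks were also nearest to it. Il23r, the IL23 receptor, kept 1 of 3 peaks. Blk, a kinase of the IL17-producing branch, had DN3 peaks of up to 762, Cd27, a receptor of the interferon-producing branch, of up to 335, and Ifng, its cytokine, of up to 469 over 5 peaks. None of these genes had a CD73- peak. Sox13, an early gamma-delta factor, had a strong DN3 peak of 120 and no CD73- E2A peak, but that site had peaks in the CD73- HEB and CD73+ HEB lists.

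Peaks near the constant genes of the antigen receptors were given within 10 kb, since these genes are not in the protein-coding table. The site 2550 bp beyond Trac, the TCR alpha constant gene, was called in both lists, at 577 in the CD73- list and 2804 in the DN3 list. The site 5756 bp beyond Trbc2 scored 183 in the CD73- list and 1039 in the DN3 list. Each of the TCR gamma constant genes had 1 DN3 peak, at 169 for Trgc1, 156 for Trgc2, 150 for Trgc3 and 157 for Trgc4, and none was called again; a new CD73- peak of 51.7 stood near Trgc2. Trdc had no peak within 10 kb. The boundaries of the whole loci were set after the data were seen. In the TCR alpha and delta locus, chr14:52427967-54224198, 15 of 77 DN3 peaks were kept, 19.5%, beside 13.0% over all DN3 peaks, and 14 of its 49 strong ones, beside 24.3% over all strong DN3 peaks. In the TCR gamma locus none of 6 was kept, 5 of which were strong. In the immunoglobulin heavy chain locus, which T cells do not use, 1 of 45 was kept, 2.22%. Some V segments are near-identical copies, such as duplicated sets of the TCR alpha locus, and how the authors placed reads that match several copies is not given in the sources used here, so peaks on V segments are uncertain.

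Cytokine receptors kept a peak at 3 of 18 genes, beside 20.6% over all genes, and 13 of the 18 had no CD73- peak, as did 52.6% of all DN3-bound genes. Of their strong DN3 peaks 2 of 30 were kept, 6.67%, beside 24.3% over all strong DN3 peaks. Il6ra, the IL6 receptor, kept an intragenic site with 657 in the CD73- list and 1126 in the DN3 list. Tgfbr2, a TGF beta receptor chain, kept 1 of 13, at 76.5 in the CD73- list and 769 in the DN3 list. Ifngr1 kept a low site. Il21r had 8 DN3 peaks of up to 455, Flt3, a receptor of early progenitors, 2 of up to 378, and Il2rb 3 of up to 273, and none of these was called again. The same held for the low peaks of Il2ra, which encodes CD25 and tops out at 92.3 in the DN3 list, and of Il7r, at 64.6. In the JAK and STAT list 2 of 6 genes kept a peak. Socs3, a feedback inhibitor of cytokine signalling, kept 1 of 8, with 619 in the CD73- list and 2688 in the DN3 list.

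Receptors for homing and adhesion were kept in part. Of chemokine and egress receptors 4 of 10 genes kept a peak. Ccr9, the receptor for the thymic chemokine CCL25, kept a site 9753 bp away, with 108 in the CD73- list and 550 in the DN3 list. The taller Ccr9 site at 12214 bp, 1094 in the DN3 list, was not called again in the CD73- E2A list. It had peaks in the CD73- HEB, CD73+ E2A and CD73+ HEB lists. Cxcr4, which acts beside the pre-TCR, kept 1 of 7 and Cxcr5 1 of 3. Ccr7, S1pr1 and Klf2, genes of mature emigrants, had no CD73- peak. Selplg, the selectin ligand of progenitors, kept an intragenic site with 811 in the CD73- list and 2287 in the DN3 list. Glycosyltransferases, which build the sugars on such ligands, kept a peak at 6 of 17 genes, and 8 of 59 DN3 peaks, 13.6%, beside 13.0% over all DN3 peaks. B4galt1 had the highest CD73- score of these genes, 1473 in the CD73- list and 2824 in the DN3 list, at a site 21348 bp away. Mgat4a kept 1 of 5 with 613 in the CD73- list and 2104 in the DN3 list. Mgat5 and B4galt5 kept none. Costimulatory receptors kept a peak at 1 of 9, Cd28, and Cd2 kept none of 6.

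Among genes of the cell cycle the kept peaks were few and mostly tall. From G1 to S phase 4 of 12 genes kept one. Ccnd3, the cyclin that drives thymocyte expansion after the pre-TCR, kept 2 of 7 intragenic sites. They scored 1486 and 479 in the CD73- list and 2499 and 1472 in the DN3 list, and its next DN3 peak, 369, was not called again although both HEB lists of transduced cells had it. E2f2 kept a site with 432 in the CD73- list and 2416 in the DN3 list. Myc kept 2 of 11, the taller 221520 bp away, with 343 in the CD73- list and 3100 in the DN3 list. Ccne1 kept 1 of 2. Cdkn1a, the inhibitor p21, had DN3 peaks of 124 and 62.4 and no CD73- peak, and Ccnd1, E2f1 and E2f3 had none either. Btg2, an antiproliferative gene, kept a site 6838 bp away with 590 in the CD73- list and 3100 in the DN3 list, and Btg1 kept 1 of 4. Of 20 genes of DNA replication and mitosis only 3 were nearest to a DN3 peak; Mcm2, a subunit of the replicative helicase, kept its only one, at 489 in the CD73- list and 3087 in the DN3 list.

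The Bcl2 family, which decides survival, kept a peak at 3 of 6 genes, the 3 with the tallest DN3 peaks. Of its DN3 peaks 4 of 24 were kept, 16.7%, beside 13.0% over all DN3 peaks. Bcl2l11, the death protein BIM, kept 2 of 11, the taller with 362 in the CD73- list and 874 in the DN3 list. It also had a new strong CD73- peak of 108, 40335 bp away, at a place where every other list had a peak, DN3 HEB included. Bbc3 kept the DN3 peak over its promoter. Bcl2l1, the survival protein BCL-XL, kept 1 of 7, at 51.8 in the CD73- list and 808 in the DN3 list. Bcl2 and Mcl1 kept none. Of the quiescence factors 3 of 8 genes kept a peak. Klf13 kept 3 of 12, the tallest 59510 bp away with 578 in the CD73- list and 1817 in the DN3 list. Foxo1 and Foxp1 kept none of 13 and 8 DN3 peaks, and each had 1 new CD73- peak. In PI3K and GTPase signalling 4 of 14 genes kept one, Coro1a and Itpkb among them, and Pik3cd, the lymphocyte catalytic subunit, had a DN3 peak of 617 that was not called again.

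Genes of the unfolded protein response held a tall DN3 site without a CD73- peak beside others that were kept. Xbp1, the transcription factor at the head of that response, had DN3 peaks of 1913 and 252, and neither was called in CD73- E2A, CD73- HEB, CD73+ E2A or CD73+ HEB. The taller lies at chr11:5499885-5501723, 18918 bp from the span of Xbp1. Edem3, which sends misfolded proteins to be destroyed, kept 1 of 3, with 74.4 in the CD73- list and 3100 in the DN3 list. Herpud1, Edem1 and Ern1 also kept 1 each, so 4 of 7 genes did. Traf2, an adaptor of TNF receptors, had a single DN3 peak of 1723, at chr2:25548841-25549987, with no CD73- E2A peak and with CD73- HEB and CD73+ HEB peaks. Tnfrsf1a, the TNF receptor itself, kept its only site, with 545 in the CD73- list and 1904 in the DN3 list, and 3 of 12 genes of that list kept one. Smarca4, the remodeller ATPase BRG1, kept none of 4, with up to 900.1 in the DN3 list. In the NFAT and NF-kB list 1 of 7 kept a peak, Nfkbia, and Nfatc2 kept none of 8. In the metabolism list 1 of 8 did so, Slc2a1, which encodes a glucose transporter. Of 9 protein tyrosine phosphatases 3 kept one, among them Ptprc, which encodes CD45, with 1 of 12.

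The tallest DN3 peaks without a CD73- E2A peak stood at Hsdl1 with 2257, Xbp1 with 1913, Col19a1 with 1728, Traf2 with 1723 and Olfr1507 with 1503, an olfactory receptor gene in the stretch of the TCR alpha and delta locus. All but the Col19a1 peak had a DN3 HEB peak as well. The Hsdl1, Traf2 and Olfr1507 sites had a peak in both HEB lists of transduced cells, the Col19a1 site in CD73- HEB alone of the 4 other lists, and the Xbp1 site in neither. The tallest kept peaks, apart from sites named below where every list had a tall peak, included Trim80 with 507 in the CD73- list and 3216 in the DN3 list, Btg2, Edem3 and Lzts3, with 1193 in the CD73- list and 3100 in the DN3 list. Pag1, an adaptor that recruits the kinase CSK, scored 1016 in the CD73- list and 3100 in the DN3 list, and Cbfa2t3, a corepressor that binds E proteins, 388 in the CD73- list and 3100 in the DN3 list. Nfix, a transcription factor, scored 88.9 in the CD73- list and 3100 in the DN3 list, so a top DN3 score did not go with a top CD73- score in every case.

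New CD73- peaks were mostly low. Of the 10514 new peaks 243 were strong, and 16.7% overlapped another list of transduced cells, while 60.1% of the strong ones did. New peaks were nearest to 4872 genes, 22.3% of all genes. Within the lists the strong new peaks were 7 in all, among them those at Bcl11a with 186, Arhgef1 with 153, Rasgrp1 with 111, Bcl2l11 with 108 and Id4 with 103 and 100.8. Those of Bcl11a and Rasgrp1 lay 926509 and 105332 bp from the gene, and that of Arhgef1, a guanine nucleotide exchange factor, inside its span, with a peak in each of the other 4 lists, DN3 HEB included. The Bcl2l11 peak also had one in each of those 4 lists, and the Bcl11a peak in all but CD73+ HEB. Those of Id4 had one in CD73- HEB alone, and that of Rasgrp1 in none. The tallest new peaks stood at Tcte2 with 546, at Gm40363 with 518 and 395, at Gulp1 with 381 and at Acacb with 377. The last 2 were 113 and 76 bp wide. All 5 had a peak in the DN3 HEB list, so these places were called for HEB in DN3 cells. Outside gene neighbourhoods with 20 or more CD73- peaks there were 198 strong new peaks at 187 genes, 67 of them under 150 bp wide, and 26 were called in all 3 other lists of transduced cells and 87 in none of the 4 other lists.

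Markers of other cells were read from the same lists. Over all genes 28.4% had a DN3 peak, and 20.6% of those kept one. Erythroid and liver markers had 1 gene each with a DN3 peak, of 10 and 10, and neither was kept. NK and innate lymphoid markers had 8 of 12 with a DN3 peak, of up to 237 at Klrk1, and none was kept. These were 8 peaks in all, and the Wilson interval for the kept share runs up to 32.4%, so it includes the share over all genes. B lineage markers had 6 of 14, with peaks kept at Pou2af1 and Bach2, and Cd79a and Cd79b were nearest to none. Progenitor and myeloid regulators had 11 of 18, with Cebpb and Csf2ra kept. Among 13 genes listed as markers of the stromal layer 7 had a DN3 peak, and the only one kept was Thy1, which T cells also express and which served in the sort. These peaks mark chromatin and not the presence of such cells, whose share in the samples was not tested.

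Some stretches of repeated or clustered genes carried many peaks, and their kept shares differed widely. On chromosome 8 at chr8:19680616-20711298, a stretch nearest to 5 genes, 91 of 112 DN3 peaks were kept, 81.3%, and 328 CD73- peaks were called. Chromosome 8 as a whole kept 26.5% of its DN3 peaks, and 15.8% without gene neighbourhoods of 20 or more CD73- peaks. At the peaks nearest Obox2, in another gene cluster, 1 of 11 DN3 peaks was kept beside 36 CD73- peaks, and at Snurf 0 of 4 beside 49, while Zfp386, next to the immunoglobulin heavy chain locus, kept none of 41. The Y chromosome kept 39.6% of 53, and the other chromosomes, X included, 10.2% to 13.8%. A stretch of chromosome 2 from chr2:98662094-98663485 onward, over 1 Mb from Lrrc4c, held 7 CD73- and 4 DN3 peaks, and at the first of them all 6 lists had a peak of 3100. The kept peaks nearest Gm2244 on chromosome 14 and Esp38 on chromosome 17 also had 3100 in all 6 lists, and one of 38688 bp nearest Alkbh8 on chromosome 9 had 949 in the CD73- E2A list and 3100 in the DN3 E2A list. Without the 21 dense neighbourhoods the kept share over the genome was 12.2% and the new share 85.8%.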

How the data were processed

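Chromatin was precipitated for E2A and HEB at 3 stages, with an input library each, 9 libraries in all and 1 per group. Replicate samples had been merged before deposit, per the labels. The submitters' processing notes name Bowtie, HOMER and MACS 1.4.2, with build mm10. Each of the 6 peak lists carries a score per peak, deposited by the authors as minus 10 times the log10 p-value, with a minimum of 50 and ties at 3100. It was used unchanged, to rank and filter peaks inside 1 list and for nothing else. With 1 list per group 0 tests were run, and the 95% Wilson intervals cover counting error only.

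Peaks off chromosomes 1 to 19, X and Y were left out, 145 in the CD73- E2A list and 68 in the DN3 E2A list. Overlap was at least 1 bp, and strong peaks score at least 100. Genes were 21887 protein-coding spans of RefSeq GRCm38.p6, and 501 of 512 listed symbols matched them. The peaks compared, the gene lists and the alternatives were chosen with earlier results of these data known. Named genes are, per list, up to 3 with the tallest kept peak, up to 3 with the tallest peak and none kept and up to 2 with the tallest new peak, then the top peaks of each class, the genes with most DN3 peaks and a fixed set of regulators; others were chosen after their values were seen. A few genes meeting this rule are left out of the text but stay in the list totals. The overlap and nearest-gene steps were tested on simulated data. Scripts ran in Python 3.11.15 with pandas 2.3.3 and numpy 2.4.6.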

Additional observations from a re-analysis of the deposited data

How the results depend on the processing

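The kept share of DN3 peaks, 13.0%, was 1.66% with a reciprocal overlap of 50%, 10.8% with midpoints within 200 bp, 10.8% with each peak set to 200 bp, 14.0% with a gap of up to 500 bp, 14.3% with scores of at least 100 in both lists, 24.3% with that score in the DN3 list, 43.8% between the top 1000 peaks of each list and 12.2% without dense gene neighbourhoods. The new share of CD73- peaks, 84.6%, was in the same order 98.4%, 89.0%, 89.0%, 83.4% and 30.6%, then 22.2% with the score of at least 100 in the CD73- list, 54.2% for the top 1000 and 85.8% without dense neighbourhoods. It was 86.1% without peaks wider than 3000 bp and 51.5% among CD73- peaks that overlap another list of transduced cells. Reciprocal overlap is bounded by the widths, 155 bp in CD73- cells and 617 bp in DN3 cells at the median. The share of DN3-bound genes with a kept peak, 20.6%, was 17.8% with genes within 10 kb only, 18.5% with every gene within 10 kb, 32.4% for strong DN3 peaks and 47.3% when any CD73- peak nearest the gene counted. Removing the stretch of chromosome 2 left 13.0% and 84.6%. That removal, the dense neighbourhoods and the overlap with other lists were alternatives chosen after the data were seen. Of the gene lists, 29 of 33 stayed within their intervals with every gene within 10 kb, and 29 of 32 with strong DN3 peaks. With so few genes per list the intervals are wide, so these counts cannot show that a list's share is stable. E proteins and Id inhibitors went from 3 of 6 genes, interval 18.8 to 81.2, to 1 of 4 and still counted as within. No paired analysis was possible because each group holds 1 pooled list, and leaving out a replicate could not be done for the same reason. Depth and the caller's threshold limit every count of peaks not called again.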

Other observations

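Outside the gene lists, several genes with many DN3 E2A peaks kept none. Grm4, a glutamate receptor, had 14 DN3 peaks of up to 522, and Mvb12b, a subunit of the endosomal sorting machinery, had 11 of up to 742; neither had a CD73- peak. Fstl4 had 12 of up to 665 and Prkce, a protein kinase C, 10 of up to 426, with 1 and 2 new CD73- peaks. Gse1, with 26 DN3 peaks, kept 5, with kept-site scores of up to 232 in the CD73- list and 1644 in the DN3 list. Uaca kept 2 of 16, with up to 346 in the CD73- list and 1278 in the DN3 list. These genes were chosen after their values were seen.

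Genes grouped by their symbols shared out the peaks unevenly. Predicted genes with Gm symbols, 6.07% of all protein-coding genes, were nearest to 9.24% of new CD73- peaks, 15.2% of CD73- peaks on a DN3 peak, 10.1% of kept DN3 peaks and 4.13% of those not called again. Gm symbols are a naming class and not a family, and a few dense stretches weigh heavily in these shares. Gm15319 alone kept 25 of 28 DN3 peaks beside 80 CD73- peaks, and Gm21119 kept 19 of 21 beside 99. The shares without such stretches were not computed. Olfactory receptor genes, 5.07% of all, were nearest to 1.72% of new CD73- peaks and 0.456% of DN3 peaks not called again.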
